A study of Caenorhabditis elegans with 7 samples.

Results

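The genes described here are the numbered ceh genes of Caenorhabditis elegans, named for C. elegans homeobox. They were taken as every gene whose single symbol in the array's probe annotation is "ceh-" and a number, apart from a pair that the rule leaves out. The rule uses the symbol and no measured value, but the family was taken up with earlier results of these data known. There were 58 such genes among 17118 genes with 1 symbol, carried by 72 of 22548 probe sets on an Affymetrix C. elegans GeneChip. Each gene was represented by 1 probe set, with the suffix _at (probes specific to the gene by the array's design) preferred over _s_at (probes that can match several transcripts) and then by the highest mean. The representative carried the suffix _at for 47 genes and _s_at for 11. All 58 symbols were found in the RefSeq gene table of assembly WBcel235, which lists ceh-85 as a pseudogene.

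The arrays fall into 2 groups. The embryonic A-class group holds 3 arrays of cells carrying an unc-4::GFP reporter, isolated by fluorescence activated cell sorting from cultured embryonic cells after 24 hours in culture, with about 90% of the sorted cells positive for GFP. The reporter marks the DA and SAB motor neurons and the pharyngeal neuron I5, so the sorted cells are not one neuron class. The embryonic reference group holds 4 arrays of all viable cells from cultures of the wild-type strain N2, which hold the same neurons among cells of every other kind. Dead cells were excluded with propidium iodide. RNA of both groups (100 ng in total per array) went through 2 rounds of amplification and was labeled with biotin. Replicates are labeled as biological, and nothing in the labels ties an A-class replicate to a reference replicate. In mixed RNA of this kind, fewer cells of a type and less RNA per cell cannot be told apart.

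Homeodomain proteins are transcription factors that bind DNA through a conserved helical domain. In C. elegans the combination of homeobox genes that a neuron expresses is part of what sets its class apart, and many ceh genes are known from 1 or a few cell types each. The unc-4 gene, whose promoter marked the sorted cells, is itself a homeobox gene that acts in the A-class neurons in the choice of their synaptic inputs.

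Transcripts of unc-4 had intensities of 1289, 1155 and 1386 on the A-class arrays and of 90.1 to 111 on the reference arrays (log2 fold change 3.72), which is the check of the sort. The coefficient of determination between arrays, on log2 intensities of all probe sets, was 0.893 to 0.947 within the A-class group, 0.938 to 0.969 within the reference group and 0.772 to 0.876 between groups. Array medians were 66.9 to 70.1. The chip lot differed between the groups and no hybridization day held arrays of both, so lot and day cannot be told apart from cell type. Reference replicates 1 to 3 shared 1 hybridization day, while reference replicate 4 and each A-class array had a day of their own. The fit as reported takes all 7 arrays as independent, although the correlation within a day was estimated at 0.433. The reference arrays may thus be less independent than their number implies. The fluidics module, the station unit that washed and stained the array, was shared in part and allows values within a module. Module 1 held A-class replicates 2 and 3 and reference replicates 1 and 4. Module 2 held only A-class replicate 1 and reference replicate 2, so every value within module 2 is 1 array against 1. Of 4 A-class marker genes, unc-4 among them, 3 were higher in A-class cells by the test given next. Besides unc-4 these were unc-3 (log2 fold change 2.16) and unc-17 (1.67), while cho-1 (0.44) was not called. Of 4 general neuron genes 1 was higher by that test. For 3 of them every A-class array was above every reference array (17.1% of all genes), and for unc-64 (-0.74) every one was below. Of 13 marker genes of other neuron types 1 was lower. None of 5 body wall muscle, 3 pharyngeal muscle, 5 hypodermal, 4 intestinal and 3 germline marker genes passed the test. The body wall muscle genes had a median of -0.67, and for 4 of the 5 every A-class array was below every reference array (13.6% of all genes).

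The comparison asks which ceh genes differ between the unc-4::GFP cells and all embryonic cells. In these data 3 ceh genes were lower in A-class cells, ceh-43, ceh-37 and ceh-58, and 0 were higher. A gene was called at an adjusted p under 0.01 from limma and a difference of at least 1.7-fold. By that rule 3.31% of all genes on the array were lower and 2.21% higher, against 5.17% and 0.0% of the ceh genes. In either direction 5.51% of all genes were called. The 3 lower genes are thus close to the share of the array as a whole. At an unadjusted p under 0.05 there were 9 ceh genes with a higher and 7 with a lower mean in A-class cells, or 15.5% and 12.1%, beside 18.1% and 15.9% of all genes.

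The ceh genes were centered where the other genes were. Their median log2 fold change, A-class over reference, was 0.06 against 0.05 for all genes, with 35 above 0 and 23 below. The middle of the distribution ran from -0.25 to 0.25 (quartiles), against -0.24 and 0.28 for all genes. The whole range was -1.69 to 0.75, and 46 of the 58 lay within 0.5 of 0. All genes spanned -3.91 to 4.19. Among ceh genes the highest value was that of ceh-91 and the lowest that of ceh-43.

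**Figure D1:**
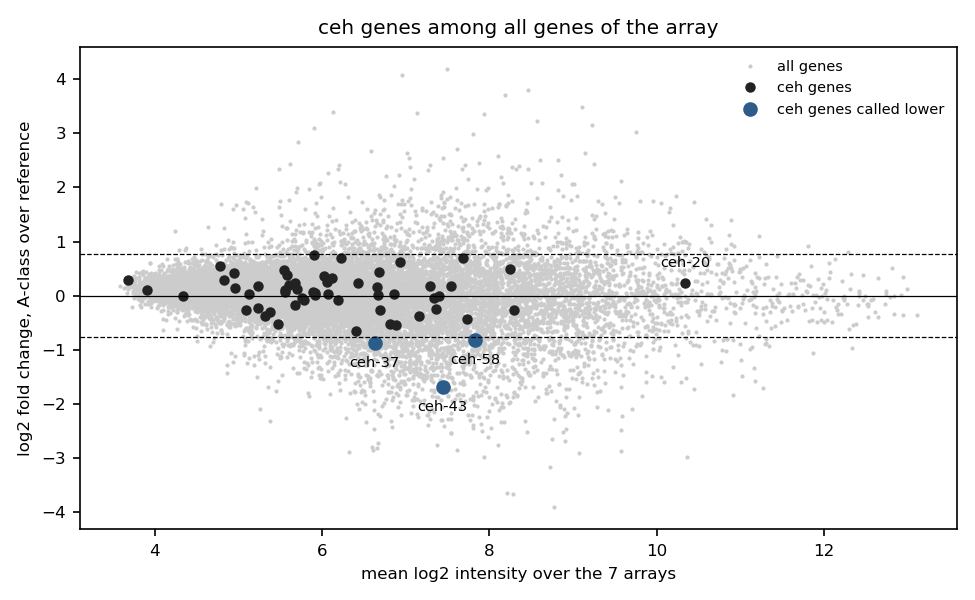
Log2 fold change of each gene, A-class over reference, against its mean log2 intensity over the 7 arrays. Grey points are all 17118 genes, black points the ceh genes and blue points the 3 called lower, and dashed lines mark 1.7-fold. The ceh genes run from -1.69 to 0.75 inside the grey cloud, and no ceh gene lies above the upper line.

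How firmly a ceh gene without a call can be placed depended on the spread of its arrays. The standard error of the log2 fold change had a median of 0.15 over ceh genes and 0.16 over all genes, and the 95% interval reached a median of 0.35 to either side. For 40 ceh genes the whole interval lay inside 1.7-fold in either direction (0.77 on the log2 scale). For the other 18, the 3 called genes among them, it reached 1.7-fold or passed it. Of the ceh genes 13 were among the dimmest 30% of probe sets, or 22.4% against 29.7% of all genes. Calls were rare at that brightness on the whole array (0.709% of genes in either direction, against 11.0% of the brightest 40%). The 3 called ceh genes were among the 22 in the brightest 40%, where 6.91% of all genes were lower. The files give no detection call, so whether a dim probe set stood above background was not assessed.

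Separate groups, in which every A-class array lay on 1 side of every reference array, were found for 15 ceh genes (25.9%, against 30.7% of all genes). Every A-class array was above every reference array for ceh-6, ceh-14, ceh-33, ceh-41, ceh-48, ceh-57, ceh-84, ceh-91 and ceh-93 (15.5% of ceh genes, 17.1% of all genes). The groups were separate in the other direction for ceh-27, ceh-31, ceh-37, ceh-43, ceh-58 and ceh-60 (10.3% and 13.6%). These shares too are near those of the array.

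**Figure D2:**
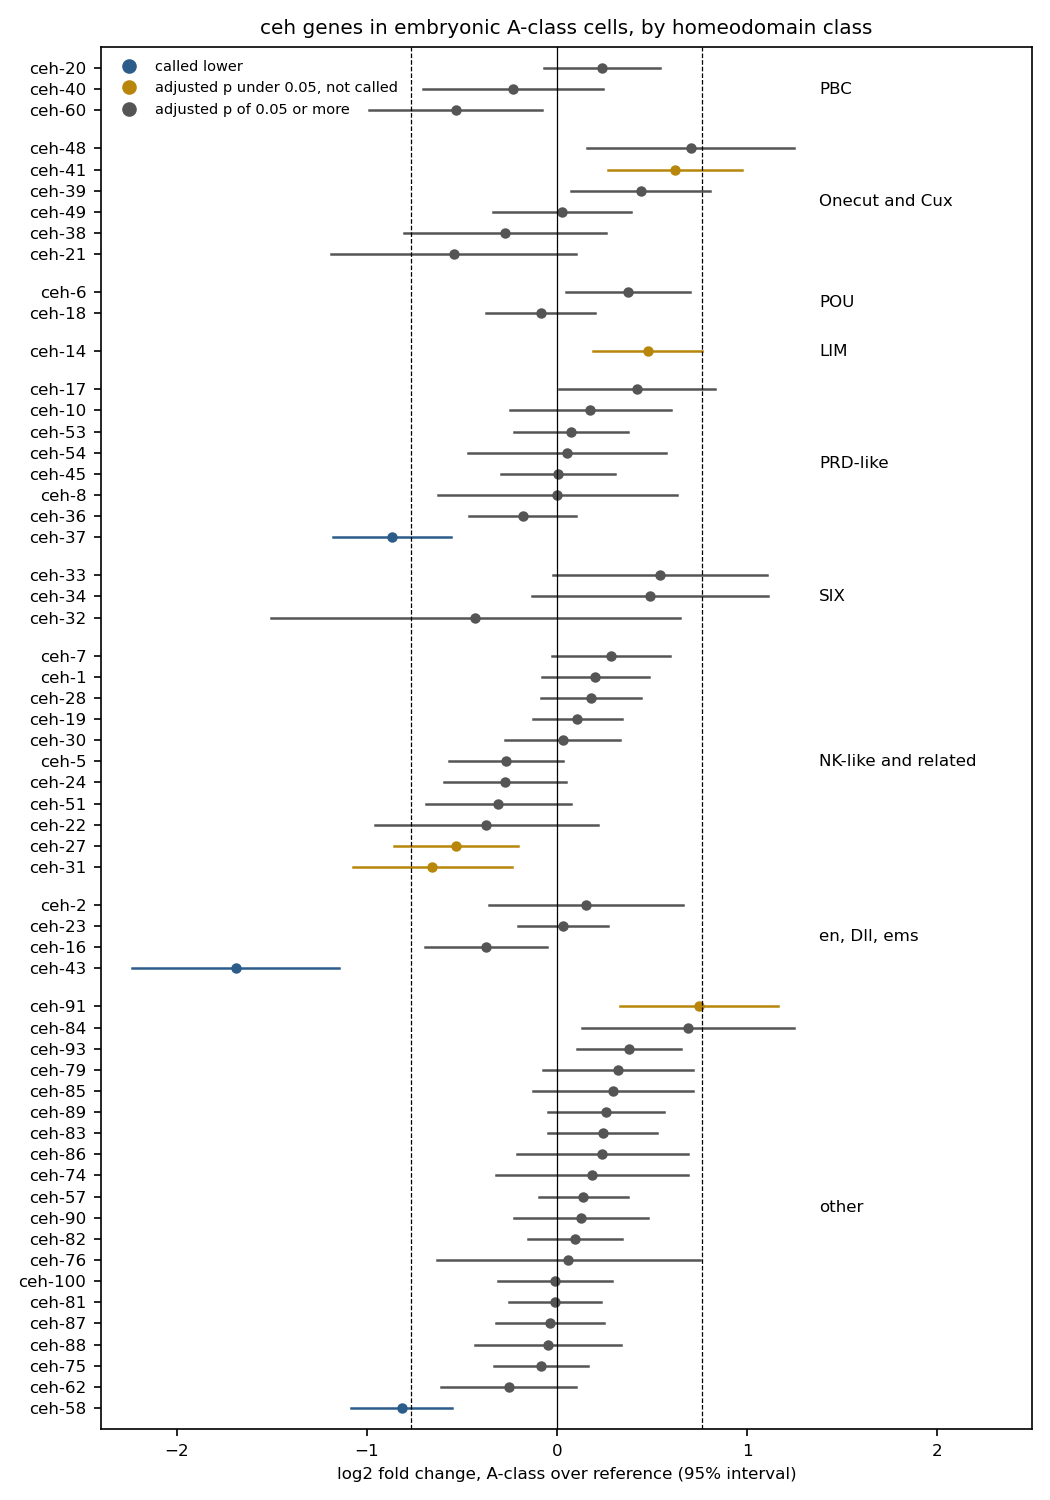
Log2 fold change, A-class over reference, of each of the 58 ceh genes with its 95% interval from limma, grouped by homeodomain class. Blue marks the 3 genes called lower, gold the 5 others with an adjusted p under 0.05 and grey the rest, and dashed lines mark 1.7-fold. The 3 blue genes fall in different groups, and no gene is called higher.

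The largest difference of any ceh gene was that of ceh-43, the Distal-less gene of C. elegans, known from the anterior hypodermis and from the dopamine neurons. Its intensity was 73.5, 128 and 75.3 on A-class replicates 1 to 3, and 237, 363, 323 and 245 on reference replicates 1 to 4. Every A-class array was well below every reference array, and A-class replicate 2 was the highest of its group. The means were 92.1 ± 30.7 (SD, n = 3 arrays) and 292 ± 60.9 (SD, n = 4 arrays), a log2 fold change of -1.69 (limma, adjusted p = 0.00319, standard error 0.24), or 3.22-fold lower. The gene has 1 probe set with a single symbol, of the _s_at kind. Within fluidics module 1 the log2 difference was -1.30 and within module 2, with 1 array of each group, it was -2.30. With the module as a block it was -1.63 with an adjusted p of 0.0286, and with the hybridization day as a random block -1.65 with 0.0137, and both missed the limit.

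Some hypodermal marker genes had lower means in A-class cells as well, and their part in the difference of ceh-43 was not tested. Of 5 such genes (dpy-7, elt-3, lin-26, bli-1, dpy-13) 0 were called, 2 had separate groups with the A-class arrays below, and the median log2 fold change was -0.73. Their summed intensity was 834 to 1328 on the A-class arrays and 1169 to 1682 on the reference arrays, so the ranges overlapped. The cuticle collagen gene dpy-7 had a log2 fold change of -1.43 (limma, adjusted p = 0.0301) and elt-3, a GATA factor of the hypodermis, had -0.73 (adjusted p = 0.045). For lin-26 the value was -0.97 (adjusted p = 0.055) and for bli-1 -0.14 (adjusted p = 0.632), while dpy-13 had the opposite sign, 0.53 (adjusted p = 0.359).

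The engrailed, Distal-less and empty spiracles homologs gave no second call. The empty spiracles homolog ceh-2, known from pharyngeal neurons, had 92.5, 142 and 95.5 on the A-class arrays and 107, 121, 70.2 and 96.8 on the reference arrays, with the groups intermixed (log2 fold change 0.15, standard error 0.22, adjusted p = 0.65). The sign of that value was not stable: it became -0.00024 with the module as a block. The engrailed gene ceh-16, which acts in the seam cells of the hypodermis, had a log2 fold change of -0.37 (limma, adjusted p = 0.101) and ceh-23 one of 0.03.

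Among the 8 PRD-like genes 1 was lower, 0 were higher and 7 did not pass, with a median log2 fold change of 0.03. The lower gene was ceh-37, an Otx gene known for specifying the AWB olfactory neurons. Its intensity was 68.6, 62.3 and 81.2 on A-class replicates 1 to 3 and 131, 137, 112 and 134 on reference replicates 1 to 4. Here the arrays of each group were close and the groups did not overlap. Means of 70.7 ± 9.62 (SD, n = 3 arrays) and 129 ± 11.3 (SD, n = 4 arrays) gave a log2 fold change of -0.87 (limma, adjusted p = 0.00475, standard error 0.14), or 1.82-fold lower. A probe set of the _s_at kind for the same gene read 76.2, 146 and 90.2 against 146, 158, 174 and 154. There A-class replicate 2 was level with the lowest reference array and the test was missed (-0.65, adjusted p = 0.0678). Within modules 1 and 2 the representative probe set differed by -0.90 and -1.003. With the module as a block its adjusted p was 0.0223, and with the day as a random block 0.0177, so the call was lost in both. Of 13 marker genes of other neuron types 1 was lower (mec-7, a touch neuron tubulin) and 12 did not pass, and their summed intensity was 1039 to 1238 on the A-class arrays and 1848 to 3224 on the reference arrays. Most of that gap lay in the touch neuron genes mec-7 (log2 fold change -1.72) and mec-17 (-1.84). The markers of ciliated sensory neurons, the kind to which AWB belongs, were near 0 (osm-6 0.07, tax-4 0.04, che-2 -0.13), and eat-4 had 0.45 (adjusted p = 0.219). Intensities of tax-4 were low on every array (15.4 to 21.4), so its value near 0 says little. The part of these markers in the difference of ceh-37 was not tested.

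The other Otx genes gave other values. For ceh-36, which acts in the AWC and ASE sensory neurons and is the direct neighbor of ceh-37 on chromosome X, intensities were 41.7, 52.2 and 49.9 on the A-class arrays and 56.7, 52.2, 57.3 and 50.4 on the reference arrays. The groups overlapped, with a log2 fold change of -0.18 (limma, adjusted p = 0.331, standard error 0.12). The Otx gene without a ceh name, ttx-1, known from the AFD thermosensory neurons, was higher in A-class cells, with 333, 267 and 266 against 79.0, 114, 114 and 98.8 (log2 fold change 1.52, adjusted p = 0.0013). Differences between the fold changes of these genes were not tested.

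A further pair of PRD-like genes is known from a few cell types each. The intensity of ceh-17, a Phox2 homolog of the ALA and SIA neurons, was 29.3, 44.1 and 37.6 on the A-class arrays and 28.9, 22.2, 32 and 26.7 on the reference arrays (log2 fold change 0.42, standard error 0.18, adjusted p = 0.135). The lowest A-class array lay inside the reference range. For ceh-10, the Vsx homolog that acts in the AIY interneurons and the CAN cells, the A-class arrays read 167, 167 and 169 and the reference arrays 187, 176, 117 and 125. The A-class arrays were nearly equal and lay between the higher and the lower pair of reference arrays (0.18, standard error 0.18, adjusted p = 0.522). The remaining PRD-like genes, ceh-8, ceh-45, ceh-53 and ceh-54, had log2 fold changes of 0.0027 to 0.08.

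The third lower gene was ceh-58, for which no role is given here. Its A-class arrays read 174, 158 and 163 and its reference arrays 256, 300, 313 and 294. No A-class array came near the reference range. The means were 165 ± 8.08 (SD, n = 3 arrays) and 291 ± 24.4 (SD, n = 4 arrays), with a log2 fold change of -0.82 (limma, adjusted p = 0.00328, standard error 0.12), or 1.76-fold lower. That value lies just past the 1.7-fold limit. The second probe set of the gene gave a larger difference with a wider spread, 47.8, 50.6 and 104 against 170, 310, 166 and 192, with a log2 fold change of -1.68 (limma, adjusted p = 0.0102, standard error 0.32). Differences of -0.78 and -0.79 were found within modules 1 and 2. The adjusted p was 0.0228 with the module as a block and 0.0147 with the day as a random block, and the call was lost in both.

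**Figure D3:**
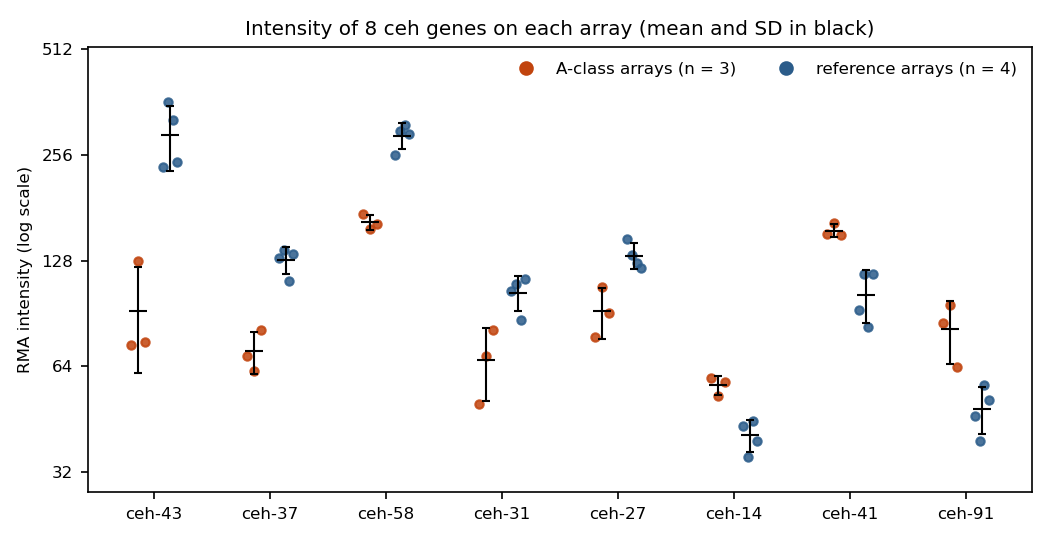
Intensity on each array, on a log scale, of the 8 ceh genes with an adjusted p under 0.05. Red points are the 3 A-class arrays and blue points the 4 reference arrays, and black bars give each group's mean and SD. For these 8 genes no A-class array overlaps the reference arrays, and the widest gap is that of ceh-43, with 73.5 to 128 against 237 to 363.

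At an adjusted p under 0.05 with no limit on the fold, 5 ceh genes were lower and 3 higher (8.62% and 5.17%, against 8.83% and 7.9% of all genes), which makes 8 in either direction (13.8%, against 16.7%). Besides the genes above these were ceh-31 and ceh-27, with lower means in A-class cells, and ceh-91, ceh-41 and ceh-14, with higher means. None of these 5 reached the 1.7-fold limit, and all of them missed an adjusted p of 0.05 with the module as a block (0.0546 to 0.087) and with the hybridization day as a random block (0.0839 to 0.104).

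The 11 NK-like and related genes had a median log2 fold change of -0.27, with 0 called in either direction. A Bar homolog, ceh-31, read 50.1, 68.6 and 81.4 on the A-class arrays and 105, 110, 86.6 and 113 on the reference arrays. Its groups were separate, with A-class replicate 3 close to reference replicate 3 (log2 fold change -0.66, standard error 0.18, adjusted p = 0.0422 from limma). Its neighbor and closest relative ceh-30, which acts in the survival of the male CEM neurons, had a log2 fold change of 0.03. The arrays of ceh-27 read 77.5, 108 and 90.7 in A-class cells and 148, 133, 126 and 122 in the reference. These groups too were separate, by a narrow margin between A-class replicate 2 and reference replicate 4 (-0.53, standard error 0.14, adjusted p = 0.0377 from limma).

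The other NK-like genes did not pass at either limit. The NK-2 gene ceh-24, known from the vulval muscles and from head motor neurons, read 108, 76.3 and 98.0 in A-class cells and 113, 120, 108 and 109 in the reference, with A-class replicate 1 level with the lowest reference arrays (-0.27, adjusted p = 0.205). The pharyngeal muscle factor ceh-22 had a log2 fold change of -0.37 (limma, adjusted p = 0.333). Of 3 pharyngeal muscle markers 0 were called, and their summed intensity was 417 to 688 against 577 to 814. The highest NK-like value was that of ceh-7, at 12.3, 17 and 14.2 against 11.3, 12.3, 12.3 and 11.3, where A-class replicate 1 matched the higher reference arrays (0.29, adjusted p = 0.172). Intensities of ceh-7 were among the dimmest on the array. The genes ceh-28 and ceh-19, known from the pharyngeal neurons M4 and MC, had 0.18 and 0.11.

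The LIM homeobox gene ceh-14, an Lhx3/4 homolog that acts in the AFD thermosensory neurons and several other neurons, read 59.5, 52.5 and 57.6 on the A-class arrays and 43.4, 35.4, 44.8 and 39.3 on the reference arrays. Spread was small in both groups, which did not overlap, with a log2 fold change of 0.48 (limma, adjusted p = 0.0338, standard error 0.13), or 1.39-fold. Its second probe set gave 0.59 (adjusted p = 0.059). With the module as a block the adjusted p of ceh-14 was 0.0734.

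Of the POU genes, ceh-6, needed in the excretory canal cell and expressed in several neurons, read 61.7, 78.5 and 89.4 in A-class cells and 61.1, 58.3, 58.7 and 55.8 in the reference. The groups were separate, but A-class replicate 1 lay only just above the reference arrays (log2 fold change 0.37, standard error 0.14, adjusted p = 0.106). For ceh-18, which acts in the gonadal sheath cells in signaling to the oocyte, the values were 60.8, 75.9 and 76.8 against 76.2, 79.8, 74.4 and 70.3, overlapping between the groups (-0.09, adjusted p = 0.655). The sign of ceh-18 turned to 0.10 (adjusted p = 0.85) on its other, brighter probe set.

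Of 7 listed Onecut and Cux genes 6 were measured, and ceh-44, which the study places in the CUT class, was not. The 6 genes spread to both sides of 0, with a median of 0.23 and 0 called. The Onecut gene ceh-41 read 153, 164 and 151 on the A-class arrays and 92.6, 117, 82.7 and 117 on the reference arrays, with a clear gap between the groups (log2 fold change 0.62, standard error 0.15, adjusted p = 0.0274 from limma), or 1.54-fold. A second probe set of ceh-41 gave 0.16 (adjusted p = 0.438). For ceh-48, a Onecut gene expressed throughout the nervous system, the values were 373, 227 and 236 against 193, 176, 117 and 193. All A-class arrays were above the reference arrays, with A-class replicate 1 far above the other two, and the test was missed at either limit (0.70, standard error 0.24, adjusted p = 0.0761). The values of ceh-39, an X-chromosome signal element of sex determination, were 146, 129 and 98.0 against 78.3, 93.7, 92.5 and 98.0, with the lowest A-class array level with the highest reference array (0.44, standard error 0.16, adjusted p = 0.0933). At the other end ceh-21 read 121, 92.9 and 77.2 against 86, 170, 133 and 193, overlapping between the groups, with a log2 fold change of -0.54 (limma, adjusted p = 0.208). Its other probe sets gave 0.17 and 0.03, so the direction of ceh-21 depended on the probe set. The genes ceh-41 and ceh-21 are neighbors on chromosome X.

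The genes ceh-32, ceh-33 and ceh-34, which share a homeodomain class, had wide errors. The A-class arrays of ceh-34, known from the pharyngeal neurons, of which I5 is one, read 385, 243 and 542, and the reference arrays 196, 277, 298 and 298. A-class replicate 2 lay inside the reference range (log2 fold change 0.49, standard error 0.27, 95% interval -0.13 to 1.11, adjusted p = 0.236). Its neighbor ceh-33 read 25.5, 53.7 and 28.7 against 24.8, 20.2, 24.8 and 24.1. No array overlapped, but 2 of the A-class arrays were just above the reference and A-class replicate 2 was far above (0.54, standard error 0.25, adjusted p = 0.159). For ceh-32, which acts in head development, the A-class arrays were at 219, 72.2 and 370 and the reference arrays at 233, 298, 215 and 233. This was the widest standard error of any ceh gene (-0.43, standard error 0.47, adjusted p = 0.542), and without A-class replicate 2 the value was 0.23. A second probe set of ceh-32 gave -0.04.

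The PBC genes encode partners with which Hox proteins bind DNA. For ceh-20, needed together with Hox genes in many cells, the A-class arrays read 1421, 1285 and 1589 and the reference arrays 1126, 1424, 1159 and 1154. Reference replicate 2 was apart from its group and inside the A-class range (log2 fold change 0.24, standard error 0.13, adjusted p = 0.243). Its _s_at probe set had the opposite sign, -0.35 (adjusted p = 0.158). The values of ceh-60, known for its part in yolk protein production in the intestine, were 33, 39.3 and 35.8 against 42.7, 55.3, 72.4 and 42.7. The groups were separate (-0.53, standard error 0.20, adjusted p = 0.0989), while its other probe set gave 0.21. The 4 intestinal markers were uncalled, with a summed intensity of 192 to 246 in A-class cells and 294 to 737 in the reference. Of the 4, ifb-2 (-1.57) and elt-2 (-0.68) had lower means in A-class cells, and ges-1 (0.20) and vit-2 (0.21) had higher means. Only the groups of ifb-2 were separate. For ges-1 only A-class replicate 2 (72.7) was above the reference arrays. The other A-class arrays of ges-1 (37.1 and 34.4) lay inside or below the reference range. Intensities of vit-2 were low on every array (12.7 to 18.6), so its value says little. The part of the intestinal markers in the value of ceh-60 was not tested. The third PBC gene, ceh-40, had -0.23.

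The remaining 20 genes, grouped as other and mostly without a role that can be given here, had a median of 0.13, with ceh-58 lower and 19 uncalled. The highest was ceh-91, with 85.2, 96.0 and 63.7 on the A-class arrays and 46.2, 39.3, 56.7 and 51.2 on the reference arrays. The groups were separate and A-class replicate 3 was near reference replicate 3 (log2 fold change 0.75, standard error 0.18, adjusted p = 0.0261 from limma), or 1.68-fold, just short of the limit. Just below it stood ceh-84 (0.69, standard error 0.24, adjusted p = 0.0866), with A-class replicate 2 at 158 and the other A-class arrays at 81.3 and 75. Apart from ceh-58, ceh-84 and ceh-91, the log2 fold changes of the group ran from -0.25 (ceh-62) to 0.38 (ceh-93).

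Several ceh genes lie beside each other in the genome, by gene order in the RefSeq table of WBcel235. In 3 of the 7 neighboring pairs 1 gene had an adjusted p under 0.05 and the lower value, and the other did not: ceh-58 (-0.82) beside ceh-57 (0.14), ceh-37 (-0.87) beside ceh-36 (-0.18) and ceh-31 (-0.66) beside ceh-30 (0.03). In ceh-41 and ceh-21 the values were 0.62 and -0.54. Like values were found for ceh-34 and ceh-33 (0.49 and 0.54). The genes of the chain ceh-81, ceh-82 and ceh-83 were all uncalled, at -0.01, 0.10 and 0.24.

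Where a ceh gene had several probe sets they did not always agree. Of 12 such genes the sign was the same on all probe sets for 8 and the call was the same for 10. Those that differed in sign were ceh-18, ceh-20, ceh-21 and ceh-60, all uncalled. Those that differed in call were ceh-37 and ceh-58, whose second probe sets had the same sign and missed the limit.

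For the homeobox genes that carry another name, 34 of a list of 35 were measured. In A-class cells 2 of them were higher and 6 lower, and 26 did not pass, with a median log2 fold change of -0.15. The higher genes were unc-4 itself and ttx-1. Those lower were vab-15 (-1.48), an Msx homolog, the LIM homeobox genes lim-7 (-1.39) and lin-11 (-1.16), the POU gene unc-86 (-1.25), which acts in the touch neurons and other sensory neurons, the caudal homolog pal-1 (-1.22) and the Iroquois gene irx-1 (-0.88). The list was drawn up with results of these data known, and its counts were not tested against those of the ceh genes.

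**Figure D4:**
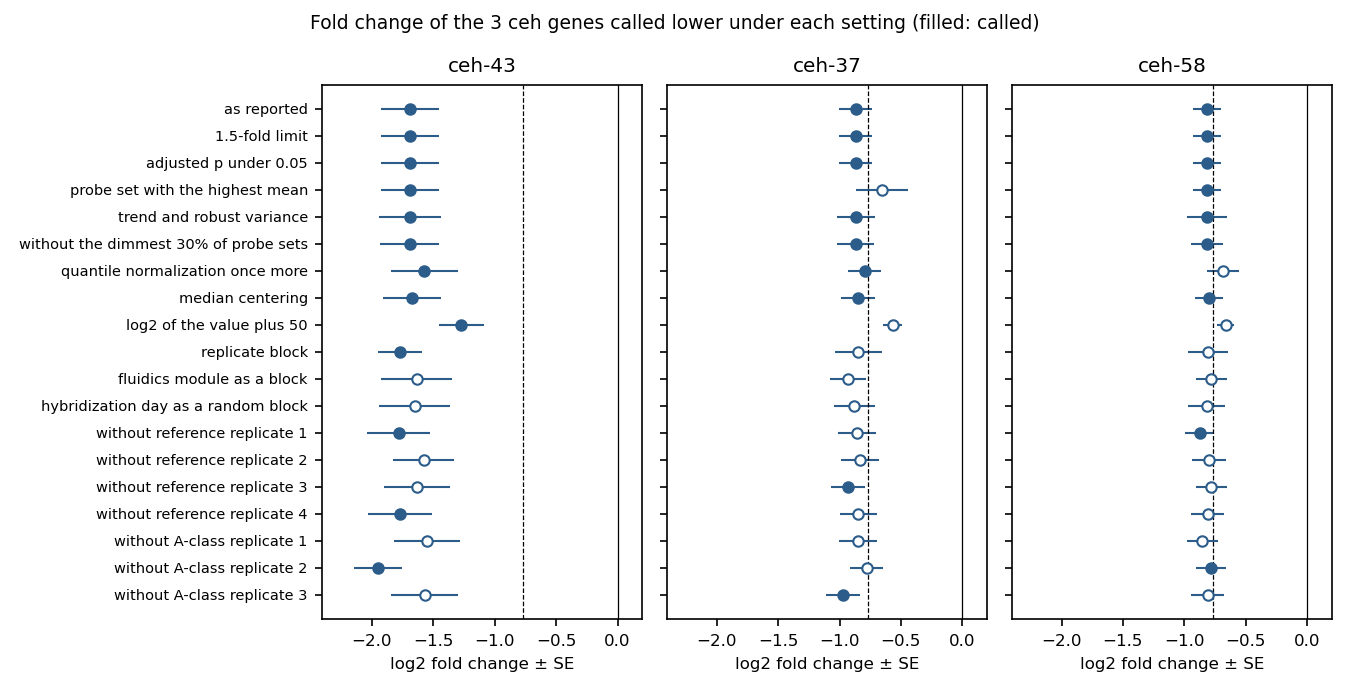
Log2 fold change, A-class over reference, with its standard error for ceh-43, ceh-37 and ceh-58 as reported and under each of 18 other settings. Filled points were called, open points were not, and the dashed line marks 1.7-fold. All values stay below 0, and all 3 points are open with the fluidics module or the hybridization day in the fit.

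The direction of these 3 genes held in all 18 settings tried, and the call did not. Some of the settings could not change the direction. The 1.5-fold limit, the adjusted p under 0.05 and the trend and robust variance leave the fold change as it was. The probe set with the highest mean changed it for ceh-37 only. Leaving out 1 array at a time, ceh-43 stayed between -1.95 and -1.55 with adjusted p of 0.00274 to 0.0168. Its call was lost without reference replicate 2, reference replicate 3, A-class replicate 1 or A-class replicate 3. The value of ceh-37 stayed between -0.97 and -0.78 (adjusted p 0.0085 to 0.0217), with the call lost without any array other than reference replicate 3 or A-class replicate 3. For ceh-58 the range was -0.88 to -0.78 (adjusted p 0.0047 to 0.0164), with the call kept without reference replicate 1 or A-class replicate 2 and lost without any other array. Calls over the whole array fell too, from 378 higher and 566 lower genes to 73 and 81 with the module as a block. Module 3 held only reference replicate 3, so that array adds nothing to the difference in the blocked fit.

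Over the A-class arrays the ceh genes did not sit evenly. A-class replicate 1 was the highest of its group for 8 ceh genes (13.8%, against 28.9% of all genes), replicate 2 for 27 (46.6% and 41.3%) and replicate 3 for 23 (39.7% and 32.3%). Set against the mean of the reference arrays, the median ceh gene stood at -0.001, 0.09 and 0.13 on A-class replicates 1, 2 and 3 on the log2 scale. For all genes the corresponding medians were 0.01, 0.05 and 0.04. These are descriptions of single arrays and were not tested.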

How the data were processed

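Affymetrix C. elegans GeneChips measured RNA of 3 embryonic A-class and 4 embryonic reference samples, grouped by their titles. Each array has 1 deposited intensity per probe set, on a linear scale, which the authors made with RMA according to the submitters' processing notes. The version of RMA, the arrays normalized together and the genome build are not given in those notes or the labels. The deposited hybridization records, read as other text values, gave the chip lot, fluidics module and hybridization day. No column of the table lacked a sample (0 columns). The small number of arrays limits the precision.

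Log2 was taken without a pseudocount or filter. The groups were compared with limma 3.58.1 (lmFit, eBayes) in R 4.3.3 on 7 arrays without covariates. The p-values were adjusted by Benjamini-Hochberg over all 22548 probe sets. The steps were tested on simulated data with independent errors and no effect of lot, module or day. That test therefore does not bear on calls that such effects could make. Intervals are 95% intervals from the same fit. Tables and figures used Python 3.11.15, pandas 2.3.3, numpy 2.4.6 and matplotlib 3.10.9. The study's methods give no test for this profile. By the platform annotation 20766 probe sets carry 1 symbol and were used to name genes, while 887 that carry several and 895 that carry none were not. The genes ceh-44 and ceh-26 (listed as pros-1), both known as homeobox genes, had no such probe set under a ceh name and were not analysed here. No sequences were used, and coordinates served only to put genes in order along the chromosomes.

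The members and lists were chosen with earlier results of these data known. Values of every array are given for each ceh gene called, each with an adjusted p under 0.05, each that the study lists among homeobox genes enriched in any of its neural profiles (not independent evidence of a direction), and the most positive and most negative of each class, 24 genes in all. Values given for other genes were chosen after they were seen. Classes follow general knowledge of homeodomain types. Alternatives were a 1.5-fold limit, an adjusted p under 0.05, the probe set with the highest mean, a trend and robust variance, a filter on the dimmest 30% of probe sets, a second quantile normalization, centering on array medians, a pseudocount of 50, a block for the replicate number, the fluidics module or the hybridization day, and the omission of each array in turn.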

Additional observations from a re-analysis of the deposited data

Results flagged for a closer look

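For 5 ceh genes 1 of the 4 reference arrays lay apart from the others by Dixon's ratio (its gap to the nearest array over the group's range, at the 95% level), where chance gives about 1 group in 20. That rate assumes values without ties, and ceh-33, ceh-81 and ceh-82 had reference arrays with identical values, so it does not hold for them. For ceh-82 the identical values on reference replicates 1 to 3 fix the ratio at 1.0. The groups of 3 A-class arrays were too small for this ratio. Reference replicate 2 read 1424 for ceh-20, above the other arrays at 1126 to 1159. It read 20.2 for ceh-33, below 24.1 to 24.8. For ceh-89 it read 55.6, below 63.2 to 64.5, and for ceh-81 it read 19.5, below 20.4 to 20.6. Reference replicate 4 read 46.4 for ceh-82, where the other arrays were all at 45.6. None of these genes was called lower or higher, and the causes were not tested.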

How the results depend on the processing

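Under 18 alternatives 0 ceh genes were higher in A-class cells, beside 0.403% to 3.41% of all genes. The median log2 fold change of the ceh genes stayed between 0.03 and 0.10. It could not move with a 1.5-fold limit, an adjusted p under 0.05 or a trend and robust variance, which leave the fold changes as they were. The count of lower ceh genes was 3 with a 1.5-fold limit (3.43% of all genes lower) or an adjusted p under 0.05 (6.55%). It was 3 as well with a trend and robust variance (3.31%), median centering (2.96%) or the dim filter (5.37%), which left 45 ceh genes. With the brightest probe set (3.42%) or quantile normalization (2.93%) the count was 2. It was 1 with log2 of the value plus 50, which shrinks the changes of dim genes (1.47% of all genes lower). It was 0 with the fluidics module in the fit (0.473%) and 0 with the hybridization day as a random block (1.06%, correlation within a day 0.433). Leaving out 1 array gave 0 to 2 lower ceh genes, beside 1.01% to 3.17% of all genes. It gave 0 without reference replicate 2 (1.01%) or A-class replicate 1 (1.52%). The count of lower ceh genes thus fell in settings where calls over the whole array fell too. The replicate numbers are not known to pair the arrays, and deviations of same-numbered arrays correlated at 0.03, -0.12 and -0.05. With the replicate block 1 ceh gene was lower, ceh-43, and 69 genes of the array were higher and 78 lower in place of 378 and 566. The chip lot was not run as a random block because each lot held 1 group. Signs were followed for the 24 genes with values of every array, and among these the sign turned for 3 uncalled genes. Other genes near 0 turned as well, such as ceh-8 and ceh-45 with the module in the fit (-0.05 and -0.02). For ceh-18 it turned with the brightest probe set (0.10) and without A-class replicate 1 (0.023, with -0.14 the lowest value when 1 array was left out). For ceh-32 it turned without A-class replicate 2 (0.23, with -0.95 the lowest). For ceh-2 it turned with the module in the fit or without reference replicate 3 (-0.00024 in both) and without A-class replicate 2 (-0.043, with 0.27 the highest). The causes were not tested.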

Other observations

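Some deposited intensities recur from array to array. Of the 58 ceh genes 26 (44.8%) had a value that was identical to 6 decimals on at least 2 of the 7 arrays, and so did 37.6% of all genes. For 6 ceh genes (10.3%, against 12.4% of all genes) the 7 arrays held 5 or fewer distinct values. In 16 of these 26 genes an A-class array shared a value with a reference array, as for ceh-36 and ceh-39. The cause was not tested.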
